A study of Danio rerio with 50 samples.

Results

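Genes of mitochondrial and peroxisomal fatty acid oxidation were followed in the livers of adult male zebrafish (Danio rerio) kept in water with estradiol. They were chosen by gene symbol, not by value, but with earlier results of these data known. Older names were brought up to current ones. Taken were genes whose symbol starts with cpt1, cpt2, acad, acox, acaa, hadh, ehhadh, ech1, echs, echdc, eci1 or eci2. Also taken were those starting with decr, crat, crot, etf, slc25a20, acot, acsl, ppara or pex and a digit. Of 23232 probes on the array, 60 matched, for 50 genes. Of these, 59 probes for 49 genes had values on at least 3 arrays of each group and entered the test, out of 22046 tested probes and 9163 named genes. The probe of acaa2, the mitochondrial thiolase, had a value on 30 arrays and was not tested. The prefix etf also caught etf1b, a translation termination factor, which is counted apart. This leaves 48 pathway genes, of which 18 work in mitochondria, 18 in or for peroxisomes, and 12 are acyl-CoA synthetases, acyl-CoA thioesterases or the related genes echdc1 and echdc2. No tested probe carried ppara, cpt1a or hadha.

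Estradiol is the main estrogen of vertebrates, and in fish it makes the liver produce yolk precursors. The water of the treated males held 0.5, 5 or 50 µg/L of it for 24 or 96 h, and males without it were taken at the same times. The data hold 8 and 7 control arrays at 24 and 96 h, 6 arrays of each dose at 24 h, and 6, 4 and 7 arrays of 0.5, 5 and 50 µg/L at 96 h. Per the labels these are biological replicates; nothing is said of shared tanks, and p-values measure only how far these samples spread. The descriptions count 6 replicates of 5 µg/L at 96 h, of which 4 are held here, and most descriptions of 50 µg/L at 96 h give a slightly longer time than the titles. Each array set the RNA of a fish sample, in Cy5, against 1 pool of wild-type liver RNA of both sexes, in Cy3. A level below is the log2 ratio of a sample to that pool, with each array centred on its median. With 1 dye orientation throughout, any dye effect is part of each level. An effect that is constant for a probe cancels between groups. Whether one that varies with signal does so was not tested.

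Fatty acids are burned in steps. Acyl-CoA synthetases join them to coenzyme A, and the carnitine shuttle carries the long-chain products into mitochondria, where CPT1 is the controlled gate. Inside, acyl-CoA dehydrogenases, hydratases, hydroxyacyl-CoA dehydrogenases and thiolases shorten the chain in a repeating cycle, auxiliary enzymes deal with double bonds, and electron transfer flavoprotein passes electrons on to the respiratory chain. Peroxisomes shorten very long and branched chains with an oxidase in the first step and hand the products over as carnitine esters, while peroxins (pex genes) build the organelle and import its enzymes. In liver this pathway supplies energy and ketone bodies in fasting, and in mammals the receptor PPAR alpha controls many of its genes.

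Differences below are log2 differences from the untreated males of the same time ± SE of limma's fit over all 50 arrays, and adjusted p-values are limma's, adjusted over all tested probes. A gene is said to rise or fall where that p is under 0.05. Where several probes stand for 1 gene, the values are those of the probe brightest in Cy3. Of the treated arrays, 3 of 50 µg/L at 24 h (replicates 3, 4 and 5) and 2 at 96 h (replicates 3 and 4) had under 60% of Cy5 spots above background, and 1 of 0.5 µg/L at 24 h (replicate 2) stood apart from its group (r = 0.592 with the mean of the rest across probes). The signal of control arrays was not analysed here. No Cy5 spot of these genes was saturated on a treated array.

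The number of oxidation genes that fell grew with dose and was largest at 96 h. After 24 h, 0 of the 48 genes were called at 0.5 µg/L by limma (0.447% of all named genes were), with 0 higher and 1 lower at an unadjusted p under 0.05. The share of all named genes at that unadjusted p was not counted. At 5 µg/L 2 rose and 4 fell (4.18% and 3.45% of named genes did), and at 50 µg/L 7 rose and 7 fell (9.56% and 6.16%). After 96 h, 1 rose and 2 fell at 0.5 µg/L (2.64% and 1.11% of named genes), 3 rose and 9 fell at 5 µg/L (9.85% and 5.41%), and 4 rose and 18 fell at 50 µg/L (13.3% and 8.14%). Of the 18 mitochondrial genes none rose in any of these 6 comparisons. At 24 h 1 of them fell at 5 µg/L and 3 fell at 50 µg/L, and at 96 h 1, 6 and 11 fell as the dose grew. The median difference of the 48 genes at 50 µg/L and 96 h was -0.32, against 0.09 over all named genes. Without the low-signal arrays the 14 calls at 50 µg/L and 24 h became 9. With array weights the 6 calls at 5 µg/L and 24 h became 11 and the 3 at 0.5 µg/L and 96 h became 6, and with pooled controls the former became 12. Calls over all tested probes grew under these settings too. With array weights they went from 1340 to 2265 at 5 µg/L and 24 h and from 716 to 1766 at 0.5 µg/L and 96 h. With pooled controls the 1340 became 2226.

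Markers of liver cells moved in the same samples. All control arrays held hepatocyte markers well above the pool, a ratio that also depends on what the pool holds. Of 13 hepatocyte markers 2, 7 and 10 fell at the 3 doses at 24 h and 4, 11 and 11 at 96 h, with none rising. Among named genes 0.447% were called at 0.5 µg/L and 24 h, and 3.45% and 6.16% fell at the higher doses. At 96 h 1.11%, 5.41% and 8.14% of them fell. The mean level of the hepatocyte markers at 24 h was 2.14 to 3.05 on controls and 1.29 to 2.35, 1.42 to 1.93 and 0.11 to 1.70 at the 3 doses. At 96 h it was 2.28 to 2.98 on controls and 1.54 to 2.04, 0.84 to 1.21 and 0.38 to 1.51. Only 0.5 µg/L at 24 h overlapped its controls. At 50 µg/L and 96 h 1 of 14 muscle and 2 of 10 exocrine pancreas markers rose, as did 1 of 3 testis markers. Of all named genes 13.3% rose there. None of 6 erythrocyte, 5 macrophage and neutrophil, 3 intestine and 2 adipocyte markers was called in that comparison. The 2 adipocyte markers fell at 5 and 50 µg/L at 24 h. Between the untreated males of 24 and 96 h, 5 of 10 pancreas markers were lower at 96 h (median difference -1.34), where 1.45% of named genes differed. The part of these shifts in the falls of the oxidation genes was not tested. In bulk liver fewer cells of a type and less RNA per cell cannot be told apart.

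**Figure D1:**
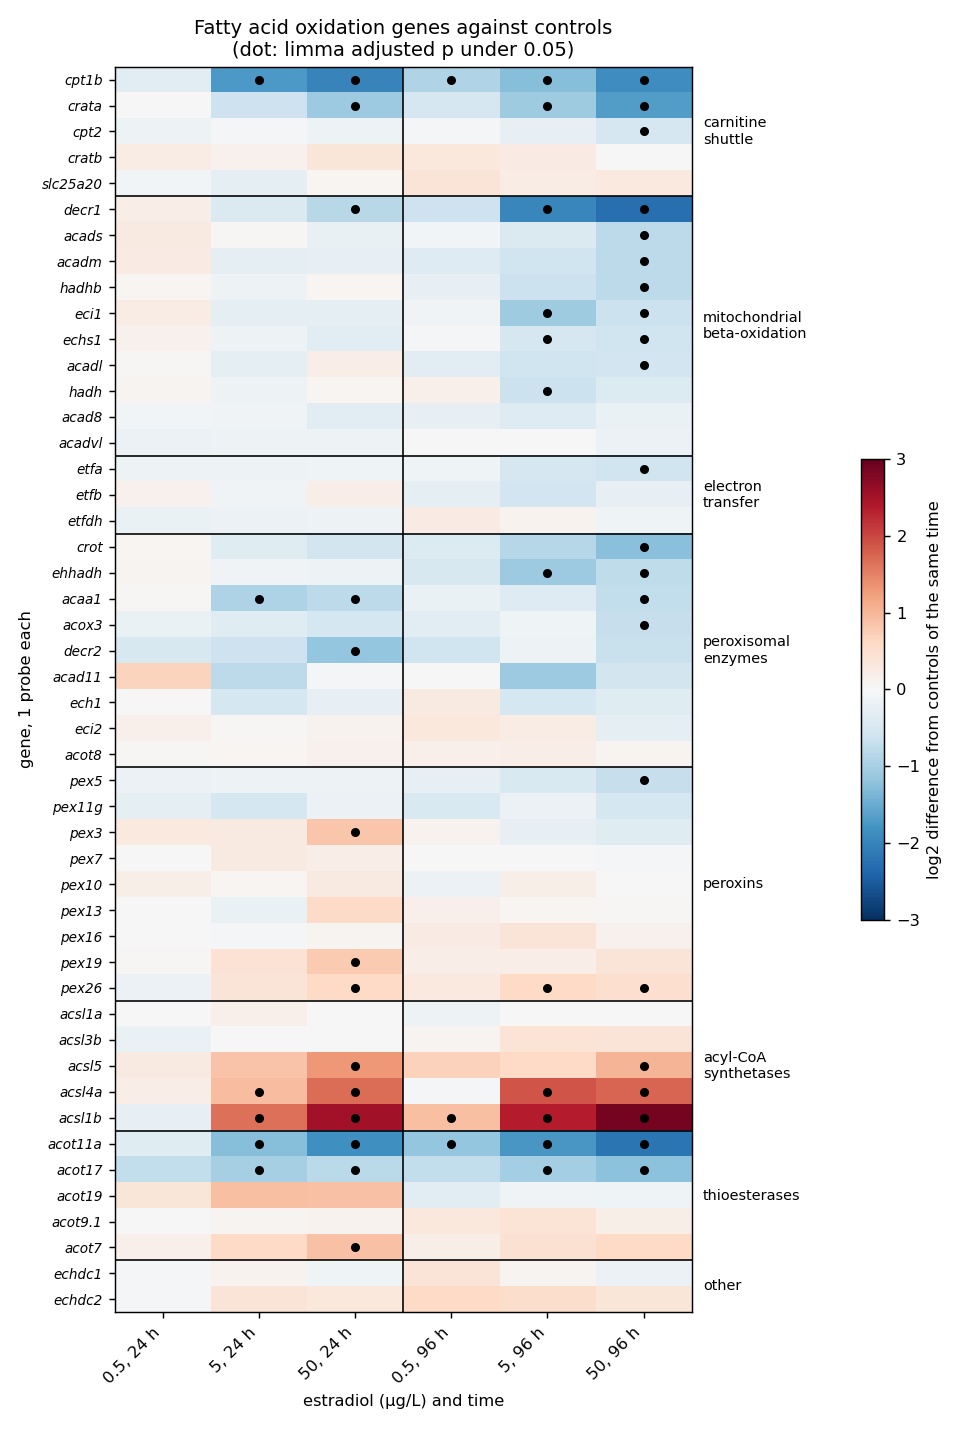
Log2 difference from controls of the same time for the 48 pathway genes (rows, grouped by role) at 3 doses and 2 times (columns). Blue is lower and red higher, and a dot marks an adjusted p under 0.05; the column of 50 µg/L at 96 h holds 18 falls and 4 rises.

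Among the genes of fatty acid activation and entry, 3 of 5 long-chain acyl-CoA synthetase genes rose at 50 µg/L at both times. Of named genes 9.56% rose at 24 h and 13.3% at 96 h at that dose. Of the carnitine gate only cpt1b was tested, which fell, and no tested probe carried cpt1a. The acyl-CoA synthetase gene acsl1b (probe 5452013) lay below the pool in control males, at -1.16 to -0.70 (median -1.05) at 24 h and -1.58 to -0.79 (median -1.10) at 96 h. At 24 h its levels were -1.50 to -1.07 (median -1.13) at 0.5 µg/L, 0.23 to 1.13 (median 0.67) at 5 µg/L and 0.82 to 2.27 (median 1.50) at 50 µg/L. At 96 h they were -0.85 to 0.79 (median -0.20) at 0.5 µg/L, 1.05, 1.22, 1.24 and 1.40 at 5 µg/L, and 1.32 to 2.03 (median 1.70) at 50 µg/L. Every array of 5 and 50 µg/L stood above every control of its time, while the 0.5 µg/L groups overlapped theirs. At 24 h the rise was 1.65 ± 0.18 at 5 µg/L and 2.53 ± 0.18 at 50 µg/L, and the differences were 0.90 ± 0.18, 2.37 ± 0.21 and 2.87 ± 0.18 at the 3 doses at 96 h, the last a 7.33-fold change (adjusted p = 1.4e-18). At 0.5 µg/L and 24 h it differed by -0.26 ± 0.18 (adjusted p = 0.662).

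The gene acsl4a (probe 5448592), whose mammalian enzyme prefers arachidonic acid, lay at 0.75 to 2.12 (median 1.73) on 24 h controls and at 1.99 to 3.26 (median 2.48) and 3.11 to 3.38 (median 3.20) at 5 and 50 µg/L. At 96 h controls gave 1.16 to 2.49 (median 1.93), 5 µg/L gave 3.62, 3.72, 3.77 and 4.24, and 50 µg/L gave 3.07 to 4.17 (median 3.91). At 50 µg/L, and at 5 µg/L after 96 h, all treated arrays lay above the controls. At 24 h acsl4a rose by 0.93 ± 0.23 and 1.68 ± 0.23 at 5 and 50 µg/L, and at 96 h by 1.90 ± 0.27 and 1.75 ± 0.23 (adjusted p = 5.61e-08). At 0.5 µg/L it measured 0.20 ± 0.23 and -0.04 ± 0.24 at the 2 times (adjusted p = 0.829 and 0.965). Its other probes rose by 1.70 and 1.54 at 50 µg/L and 96 h.

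The third synthetase gene to rise was acsl5, with levels of -1.94 to -0.84 (median -1.34) on 24 h controls and -1.34 to 1.17 (median 0.07) at 50 µg/L. It rose by 1.30 ± 0.34 there (adjusted p = 0.00577) and by 1.02 ± 0.34 at 96 h (adjusted p = 0.0281), where controls had a lowest level of -2.62 and a median of -1.65, and treated arrays ran from -1.33 to 0.17 (median -0.86). The ranges overlapped at both times. The 96 h call ended without the low-signal arrays (0.81), with array weights (0.64) and when control replicate 3 or 7 or treated replicate 3, 4 or 7 was left out (0.86 to 0.97). The remaining synthetase genes, acsl1a and acsl3b, measured 0.00 and 0.40 at 50 µg/L and 96 h and were not called; acsl3b ranged from -1.16 to -0.30 (median -0.56) on controls and from -0.48 to 0.16 (median -0.25) treated, and its spot was above background on 20 of 35 treated arrays.

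The carnitine shuttle genes responded unevenly. The gate gene tested, cpt1b (probe 5466392), was the member furthest above the pool in control males, at 3.00 to 4.43 (median 3.52) at 24 h and 3.23 to 4.78 (median 3.73) at 96 h. In mammals CPT1B is the form of muscle and CPT1A that of liver. The muscle markers of these samples had mean log2 ratios to the pool of -4.19 to -2.39 over 14 genes on all arrays. Such ratios do not measure how much muscle RNA a sample holds. Of the 14 actc1b fell at 50 µg/L and 24 h (-0.83) and pvalb1 rose at 50 µg/L and 96 h (1.05). At 24 h cpt1b measured 2.40 to 3.69 (median 3.45) at 0.5 µg/L, 1.15 to 2.28 (median 1.99) at 5 µg/L and 1.12 to 2.16 (median 1.66) at 50 µg/L. At 96 h it measured 2.32 to 3.71 (median 2.64) at 0.5 µg/L, 2.34, 2.44, 2.60 and 2.69 at 5 µg/L, and 1.45 to 2.34 (median 1.95) at 50 µg/L. All arrays of 5 and 50 µg/L lay below all controls of their time, at both times, yet still above the pool.

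At 24 h the difference of cpt1b was -1.73 ± 0.24 at 5 µg/L (adjusted p = 5.32e-07) and -2.01 ± 0.24, a 4.04-fold fall, at 50 µg/L (adjusted p = 4.26e-09). At 96 h the differences were -0.90 ± 0.24, -1.28 ± 0.27 and -1.87 ± 0.23 at 0.5, 5 and 50 µg/L. At 0.5 µg/L and 24 h it was -0.34 ± 0.24 (adjusted p = 0.655). The call at 0.5 µg/L and 96 h (adjusted p = 0.0253) ended after quantile normalization (-0.65), with only the arrays compared (adjusted p = 0.0911) and when control replicate 2 or 6 or treated replicate 1, 3, 4 or 5 was left out (-0.87 to -0.74). The spot was above background on 3 of 6 arrays of 50 µg/L at 24 h.

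Carnitine acetyltransferase, encoded by crata (probe 5451626), which moves short acyl groups onto carnitine, followed the same direction. Its levels were 1.12 to 1.83 (median 1.22) on 24 h controls and -0.09 to 0.64 (median 0.32) at 50 µg/L, with no overlap. At 96 h they were 0.95 to 2.36 (median 1.68) on controls, 0.35, 0.41, 0.81 and 0.94 at 5 µg/L, and -0.53 to 0.35 (median 0.04) at 50 µg/L, again without overlap. The differences were -0.62 ± 0.22 at 5 µg/L and 24 h (adjusted p = 0.0877, not called), -1.09 ± 0.22 at 50 µg/L and 24 h, and -1.06 ± 0.26 and -1.68 ± 0.22 at 5 and 50 µg/L at 96 h (adjusted p = 4.75e-08 for the last).

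The inner membrane transferase gene cpt2 fell at 50 µg/L and 96 h (-0.51 ± 0.19, adjusted p = 0.0484), from -0.55 to 0.40 (median 0.29) on controls to -0.67 to -0.06 (median -0.47). That call of probe 5450417 ended when any of 10 of the 14 arrays was left out (-0.53 to -0.45; controls 1, 2, 3 and 6 and treated replicates 2 to 7), without the low-signal arrays (-0.51, adjusted p = 0.0882), with only the arrays compared (adjusted p = 0.0583) and with pooled controls (-0.34). The other cpt2 probe fell at 5 and 50 µg/L at 96 h (-0.93 ± 0.28 and -0.95 ± 0.25). The carrier gene slc25a20, which swaps carnitine esters across the inner membrane, ranged from 1.63 to 2.84 (median 1.91) on 96 h controls and from 1.78 to 2.85 (median 2.54) at 50 µg/L (0.30 ± 0.22, adjusted p = 0.38), and cratb measured -0.01 there. Of the 5 shuttle genes 3 fell and none rose at 50 µg/L and 96 h (8.14% and 13.3% of named genes did).

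**Figure D2:**
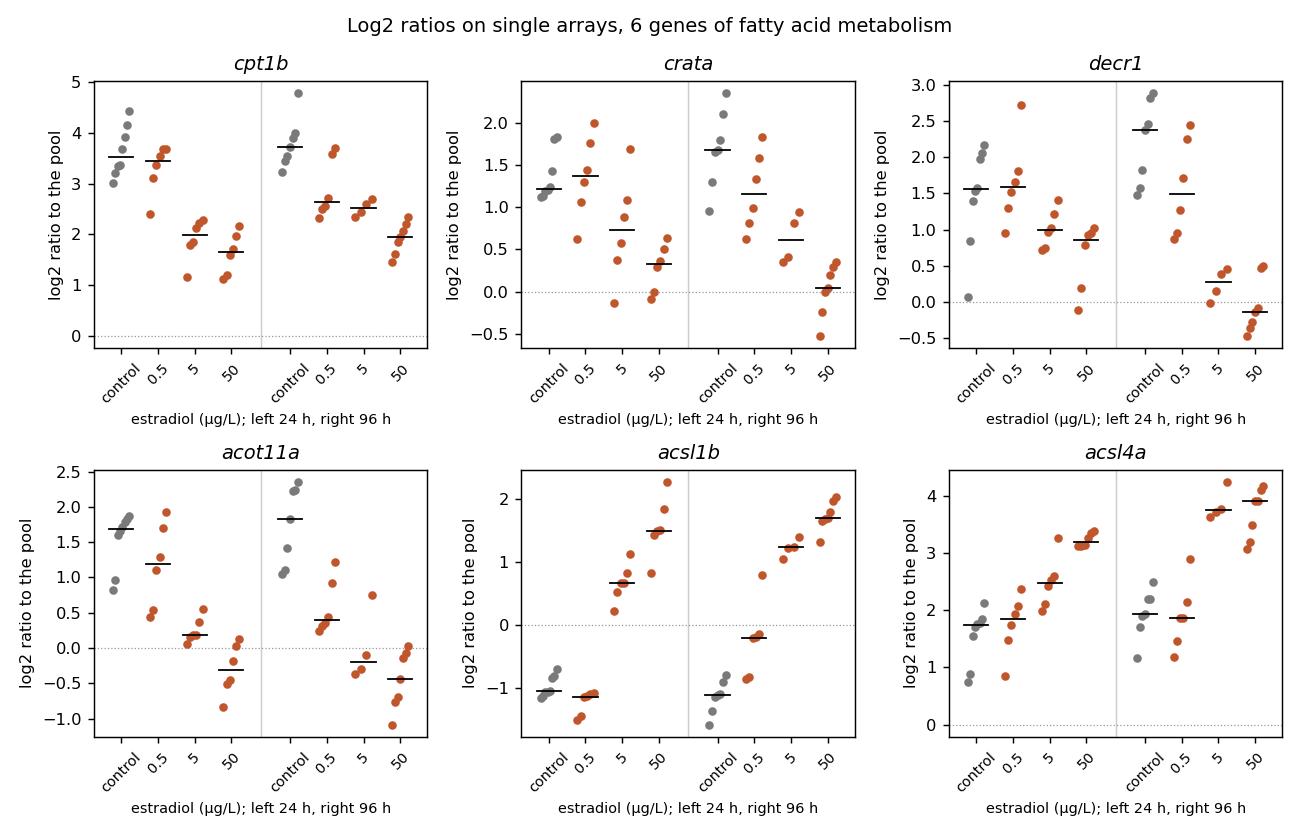
Log2 ratio to the liver pool on each array for 6 genes, by dose, with 24 h on the left and 96 h on the right of each panel; points are arrays (grey controls, orange treated), bars medians. In 5 and 50 µg/L groups cpt1b and acot11a lie below all controls and acsl1b above all controls of their time.

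The enzymes of the mitochondrial spiral fell mainly at 96 h. At 50 µg/L 7 of 10 fell at that time and 1 at 24 h (8.14% and 6.16% of named genes did). At 5 µg/L 4 fell at 96 h and none at 24 h (5.41% and 3.45% of named genes did). All 10 differences were below 0 at 5 and at 50 µg/L at 96 h. The largest was that of decr1 (probe 5456349), encoding 2,4-dienoyl-CoA reductase, an auxiliary enzyme for polyunsaturated fatty acids. On controls decr1 lay at 0.06 to 2.17 (median 1.56) at 24 h and 1.48 to 2.88 (median 2.37) at 96 h. At 24 h it measured 0.95 to 2.72 (median 1.59), 0.71 to 1.41 (median 0.99) and -0.11 to 1.02 (median 0.85) at the 3 doses, overlapping the controls at each. At 96 h it measured 0.87 to 2.45 (median 1.49) at 0.5 µg/L, -0.02, 0.15, 0.39 and 0.46 at 5 µg/L, and -0.47 to 0.49 (median -0.14) at 50 µg/L. The 2 higher doses at 96 h lay wholly below the controls.

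At 96 h the differences of decr1 were -0.62 ± 0.28, -1.95 ± 0.32 and -2.25 ± 0.27 at the 3 doses (adjusted p = 0.27, 1.01e-05 and 7.65e-09). At 24 h they were 0.21 ± 0.28, -0.44 ± 0.28 and -0.83 ± 0.28 (adjusted p = 0.848, 0.473 and 0.037). The last call ended without the low-signal arrays (-0.79), with only the arrays compared (adjusted p = 0.0662) and when any of control replicates 4 to 8 or treated replicate 2 or 5 was left out (-0.81 to -0.68). The probes of decr1 disagreed: the other one, above background on 27 of 35 treated arrays, measured -0.19 ± 0.13 and -0.24 ± 0.13 at 50 µg/L at 24 and 96 h and was called in none of the 6 comparisons. With the mean of both probes the differences at 5 and 50 µg/L and 96 h were -1.08 and -1.23, still called.

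Other genes of the spiral fell by less. Among the acyl-CoA dehydrogenases, which take the first pair of electrons, acadm for medium chains lay at 0.57 to 1.02 (median 0.85) on 96 h controls and -0.24 to 0.30 (median 0.01) at 50 µg/L, without overlap (-0.79 ± 0.21, adjusted p = 0.00443). The short-chain gene acads went from 1.09 to 2.07 (median 1.35) on controls to 0.29 to 1.33 (median 0.59), with overlapping ranges (-0.80 ± 0.19, adjusted p = 0.002), and its other probe also fell (-0.82). The long-chain gene acadl fell (-0.58 ± 0.18, adjusted p = 0.0161), a call that ended without treated replicate 1 (-0.48). For very long chains, the representative acadvl probe measured -0.18 and was not called, while its other probes measured -0.70 (called) and -0.55 (not called). The gene acad8, which is in the counts of the spiral through the prefix acad alone, was not called.

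Of the later steps, the hydratase gene echs1 lay at 0.44 to 0.89 (median 0.59) on 96 h controls, at -0.02, 0.07, 0.13 and 0.22 at 5 µg/L and at -0.66 to 0.34 (median 0.15) at 50 µg/L. Both dose groups lay below all controls (-0.51 ± 0.16 and -0.60 ± 0.14, adjusted p = 0.0262 and 0.000989). The isomerase gene eci1, for double bonds at odd positions, fell by more at 5 µg/L (-1.06 ± 0.22, 4 arrays at -0.65 to -0.53 against -0.24 to 0.93 on controls) than at 50 µg/L (-0.65 ± 0.18), a difference between doses that was not tested. The thiolase subunit gene hadhb of the trifunctional protein fell at 50 µg/L (-0.78 ± 0.23, adjusted p = 0.0135), with values on 6 of 7 controls. The hydroxyacyl-CoA dehydrogenase gene hadh fell at 5 µg/L (-0.65 ± 0.21, adjusted p = 0.0304) and measured -0.42 ± 0.18 at 50 µg/L (adjusted p = 0.0993).

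The 5 µg/L calls of echs1 and hadh rest on 4 treated arrays. That of echs1 ended when control replicate 7 or treated replicate 1, 2 or 3 was left out (-0.52 to -0.47), after quantile normalization (-0.46), with only the arrays compared (adjusted p = 0.055) and with pooled controls (-0.41); that of hadh ended when control replicate 2 or 7 or any treated array was left out (-0.69 to -0.59) and after quantile normalization (-0.59).

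Electron transfer from the dehydrogenases was represented by 3 genes. The flavoprotein subunit gene etfa fell at 50 µg/L and 96 h (-0.59 ± 0.19, adjusted p = 0.0203), from 0.66 to 1.42 (median 0.87) on controls to 0.03 to 0.89 (median 0.38), with overlapping ranges; the call ended without control replicate 2 or 7 or treated replicate 7 (-0.53 to -0.52). Its partner etfb ranged from 0.84 to 1.86 (median 0.98) on controls and from 0.55 to 1.47 (median 0.73) at 50 µg/L (-0.26 ± 0.20, adjusted p = 0.405). The oxidoreductase gene etfdh, which hands the electrons to ubiquinone, ranged from -0.23 to 0.39 (median -0.04) and from -0.48 to 0.14 (median -0.10), with a difference of -0.12 ± 0.17 (adjusted p = 0.661).

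The peroxisomal enzymes also moved down where they moved. At 50 µg/L 2 of 9 fell at 24 h and 4 of 9 at 96 h (6.16% and 8.14% of named genes did). The thiolase gene acaa1 (probe 5456461) fell already at 24 h. Its levels were 1.13 to 2.14 (median 1.54) on 24 h controls, 0.44 to 0.99 (median 0.65) at 5 µg/L and 0.44 to 1.29 (median 0.68) at 50 µg/L, so that 5 µg/L lay wholly below the controls and 50 µg/L overlapped them. The differences were -0.93 ± 0.19 and -0.80 ± 0.19 at 24 h (adjusted p = 0.000582 and 0.00194) and -0.39 ± 0.22 and -0.74 ± 0.19 at 96 h (adjusted p = 0.283 and 0.00288). At 96 h its controls lay at 1.44 to 2.92 (median 1.84) and 50 µg/L at 1.03 to 1.58 (median 1.12).

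The gene crot, for the transferase that puts shortened chains on carnitine for export, fell most among peroxisomal enzymes at 50 µg/L and 96 h (-1.26 ± 0.27, adjusted p = 0.000531), from 0.85 to 2.50 (median 2.01) on controls to 0.28 to 1.29 (median 0.41). At 5 µg/L it gave 0.51, 0.68, 1.30 and 1.48 (-0.85 ± 0.32, adjusted p = 0.0734). The bifunctional enzyme gene ehhadh gave 0.23 to 1.06 (median 0.78) on 96 h controls, -0.78, -0.53, -0.07 and -0.03 at 5 µg/L, all below the controls, and -0.47 to 0.75 (median -0.24) at 50 µg/L, which overlapped. Its differences were -1.10 ± 0.23 and -0.76 ± 0.20 (adjusted p = 0.000505 and 0.00354).

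The oxidase gene acox3 fell at 50 µg/L and 96 h (-0.69 ± 0.22, adjusted p = 0.02), from 0.93 to 2.14 (median 1.19) to 0.36 to 1.04 (median 0.68), a call that ended without control replicate 3 or 5 (-0.62 and -0.57). The peroxisomal dienoyl-CoA reductase gene decr2 fell at 50 µg/L and 24 h, by a difference of -1.16 ± 0.27 (adjusted p = 0.0013), and at 96 h gave -0.67 ± 0.26 (adjusted p = 0.0698). Of the remaining peroxisomal enzyme genes, ech1, eci2, acad11 and acot8, none was called in any comparison with controls; in mammals the products of ech1 and eci2 are found in mitochondria too.

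The peroxins did not share this direction. At 50 µg/L and 24 h 3 of 9 rose and none fell, where 9.56% of named genes rose and 6.16% fell. Those that rose were pex3 (0.82 ± 0.23) and pex19 (0.78 ± 0.20), which together insert membrane proteins, and pex26 (0.60 ± 0.16). The last encodes the membrane anchor of the export machinery of the import receptor. The 24 h controls of pex19 lay at -0.57 to 0.82 (median 0.60) and the arrays of 50 µg/L at 0.79 to 1.58 (median 1.22), and those of pex26 at 0.51 to 0.98 (median 0.70) and 0.74 to 1.64 (median 1.37). The ranges overlapped in both. Without the low-signal arrays the calls of pex3 and pex19 ended (0.80 and 0.58, adjusted p = 0.0597 and 0.193), and the mean of both pex19 probes (0.49) was not called either.

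At 96 h the gene pex5, encoding the receptor that brings most enzymes into peroxisomes, fell at 50 µg/L (-0.70 ± 0.21, adjusted p = 0.0129), from 0.70 to 1.96 (median 1.41) on controls to 0.42 to 1.48 (median 0.55). In the same groups pex26 rose (0.49 ± 0.16, adjusted p = 0.0259; 0.11 to 0.81 against 0.70 to 1.66), and it rose at 5 µg/L (0.59 ± 0.19; 0.81, 1.25, 1.29 and 1.32, the lowest of them barely above the highest control). The 50 µg/L call of pex26 ended without the low-signal arrays (0.45) and without control replicate 2 or treated replicate 4 or 5 (0.39 to 0.47). Its 5 µg/L call ended without control replicate 2 or treated replicate 1, 2 or 3 (0.51 to 0.56), after quantile normalization (0.53) and with only the arrays compared (adjusted p = 0.0518). The division factor gene pex11g measured -0.53 ± 0.24 at 50 µg/L (adjusted p = 0.133; 0.64 to 2.15 on controls and 0.27 to 1.37 treated). The peroxins pex7, pex10, pex13 and pex16 were not called in any of these comparisons.

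**Figure D3:**
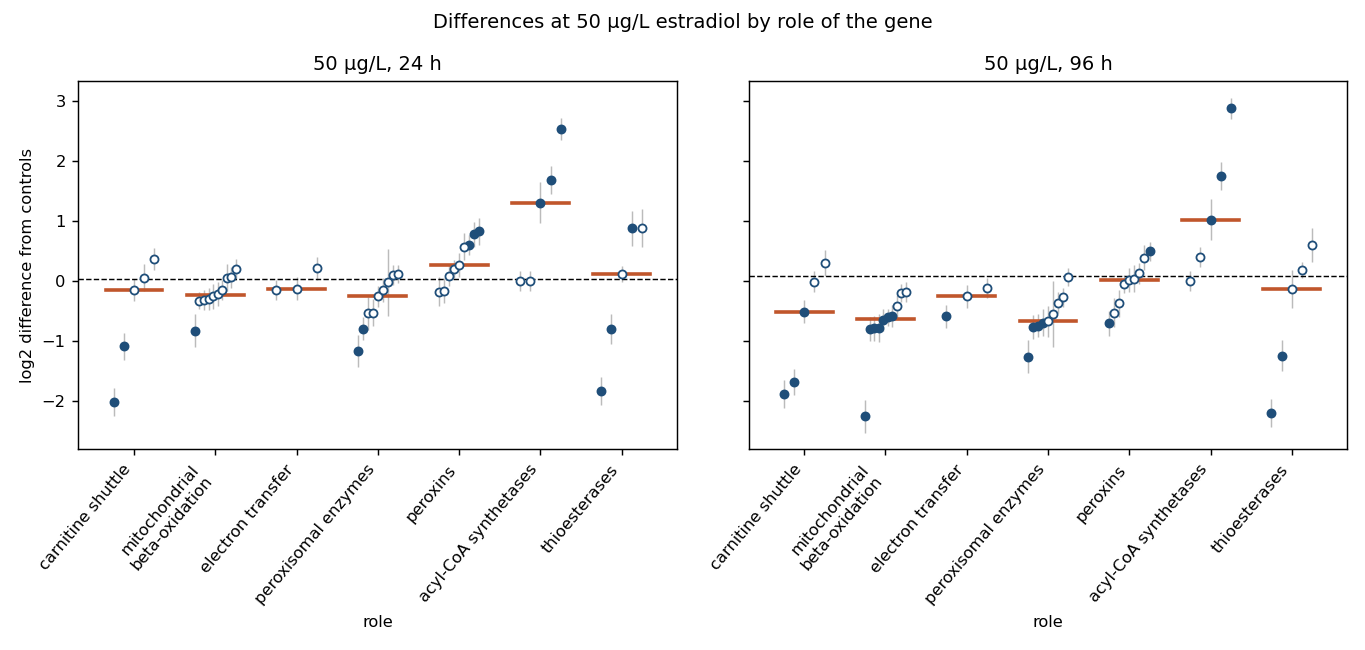
Log2 difference from controls at 50 µg/L (left 24 h, right 96 h) for each gene, grouped by role; vertical lines are ± SE of the fit, filled points have an adjusted p under 0.05, orange bars are medians of a role and the dashed line is the median of all named genes (0.03 and 0.09). At 96 h the medians are -0.63 for the mitochondrial spiral, -0.67 for peroxisomal enzymes, 0.02 for peroxins and 1.02 for acyl-CoA synthetases.

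Acyl-CoA thioesterases split acyl-CoA back into fatty acid and coenzyme A. At 50 µg/L and 96 h 2 of their 5 genes fell and none rose (8.14% and 13.3% of named genes did). The gene acot11a (probe 5451306) lay at 0.83 to 1.87 (median 1.69) on 24 h controls and at 0.44 to 1.93 (median 1.20), 0.06 to 0.56 (median 0.18) and -0.84 to 0.12 (median -0.31) at the 3 doses. At 96 h controls gave 1.05 to 2.36 (median 1.84), 0.5 µg/L gave 0.24 to 1.22 (median 0.40), 5 µg/L gave -0.37, -0.30, -0.10 and 0.75, and 50 µg/L gave -1.09 to 0.03 (median -0.44). At 5 and 50 µg/L no treated array reached a control of its time, and 0.5 µg/L overlapped at both. The differences were -0.37 ± 0.23, -1.28 ± 0.23 and -1.84 ± 0.23 at 24 h and -1.16 ± 0.24, -1.75 ± 0.27 and -2.20 ± 0.23 at 96 h, with adjusted p = 0.608 for the first and 0.000109, 2.71e-08, 0.0016, 3.06e-06 and 1.24e-10 for the rest.

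The related gene acot17 ran from 0.44 to 2.34 (median 1.47) on 96 h controls and from -0.07 to 1.01 (median 0.37) at 50 µg/L. It fell at 5 and 50 µg/L at both times (-0.99 ± 0.25 and -0.80 ± 0.25 at 24 h, -1.03 ± 0.30 and -1.24 ± 0.25 at 96 h). Its calls at 50 µg/L and 24 h and at 5 µg/L and 96 h were the less stable: the first ended without control replicate 7 or treated replicate 5 (-0.70 and -0.62) and without the low-signal arrays (-0.76), the second without treated replicate 4 (-0.74) and with only the arrays compared (adjusted p = 0.085). In the opposite direction acot7, whose mammalian enzyme is abundant in brain, rose at 50 µg/L and 24 h (0.88 ± 0.29, adjusted p = 0.033), from -2.89 to -1.28 (median -2.12) to -2.04 to -0.38 (median -1.26). That call ended without the low-signal arrays (0.70) and without control replicate 1, 4 or 7 or treated replicate 1, 3 or 4 (0.71 to 0.87). At 50 µg/L and 96 h acot7 measured 0.60 ± 0.28 (adjusted p = 0.147), and acot9.1, with controls at -0.41 to -0.12 and treated arrays at -0.30 to 0.43, 0.18 ± 0.14 (adjusted p = 0.394). The spot of acot19 was above background on 19 of 35 treated arrays, and the gene was not called at any dose. Nor were echdc1, whose mammalian enzyme removes a faulty carboxylated acyl-CoA (-0.18 ± 0.21 at 50 µg/L and 96 h), and echdc2 (0.37 ± 0.24, with controls at 0.20 to 0.74 and treated arrays at 0.17 to 2.15).

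Set side by side, more of the 18 mitochondrial than of the 18 peroxisomal genes fell at 96 h. At 50 µg/L 11 of 18 mitochondrial and 5 of 18 peroxisomal genes fell, and at 5 µg/L 6 and 1 did. Over all named genes 8.14% fell at 50 µg/L and 5.41% at 5 µg/L. Of the peroxisomal falls at 50 µg/L 4 were among 9 enzymes and 1 among 9 peroxins. The peroxisomal count was 9 with array weights and 7 without the low-signal arrays or with pooled controls, while the mitochondrial one stayed at 10 or 11 under those settings. The median difference was -0.59 for mitochondrial and -0.36 for peroxisomal genes, a gap of -0.22. Leaving out ech1 and eci2, whose mammalian products are found in mitochondria too, moved the peroxisomal median to -0.45 over 16 genes and narrowed the gap. No mitochondrial gene was left out in a like check. With array weights the gap nearly closed, at -0.05. Taken on each array as the mitochondrial minus the peroxisomal median level, the gap ran from -0.48 to 0.40 (median -0.08) on 96 h controls, from -0.85 to -0.24 (median -0.47) at 5 µg/L and from -0.74 to -0.35 (median -0.41) at 50 µg/L. All 7 arrays of 50 µg/L lay below 6 of the 7 controls, and the ranges overlapped. With enzymes alone the medians at 50 µg/L and 96 h were close, at -0.63 for the mitochondrial spiral and -0.67 for peroxisomal enzymes. That of peroxins was 0.02. Of these enzymes 7 of 10 in the mitochondrial spiral and 4 of 9 in peroxisomes fell. Among the partner genes counted further below the order was the reverse. At 96 h 7 of 14 peroxisomal and 4 of 11 mitochondrial partners fell at 50 µg/L, and 4 and 2 did at 5 µg/L. At 24 h the medians at 50 µg/L were -0.15 for mitochondrial and 0.03 for peroxisomal genes. No test of the compartments against each other was made, since the genes were chosen with results known.

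On single arrays, the median level over the 18 mitochondrial genes was 0.70 to 1.18 (median 0.86) on 96 h controls, 0.36 to 0.39 at 5 µg/L and -0.02 to 0.84 (median 0.10) at 50 µg/L. All arrays of 5 µg/L and 6 of the 7 of 50 µg/L lay below every control; the exception, at 0.84, was replicate 4, an array of low signal. At 24 h the range was 0.21 to 1.06 (median 0.94) on controls and 0.18 to 0.89 (median 0.63) at 50 µg/L, with overlap. Peroxisomal enzymes had medians of 0.93 to 1.83 (median 1.25) on 96 h controls and 0.49 to 1.02 (median 0.76) at 50 µg/L, which overlapped, and peroxins 0.42 to 0.96 (median 0.63) and 0.41 to 1.21 (median 0.62).

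**Figure D4:**
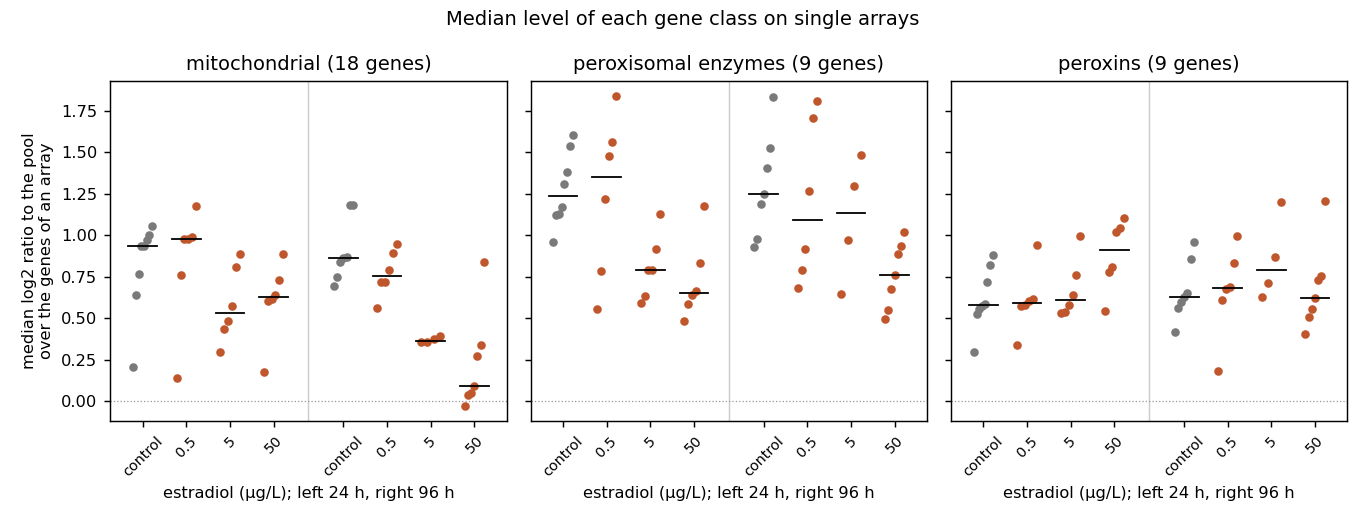
Median log2 ratio to the liver pool over the genes of each class on every array, by dose, with 24 h on the left and 96 h on the right of each panel (points are arrays, grey controls and orange treated; bars are medians over arrays). The mitochondrial median is 0.36 to 0.39 at 5 µg/L and 96 h, below the 0.70 to 1.18 of its controls, while the peroxin ranges overlap.

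Whether these effects changed between 24 and 96 h was tested as the difference of the differences. For acsl1b at 0.5 µg/L the effect was 1.16 ± 0.26 higher at 96 h (adjusted p = 0.0109), the 1 call among the 48 genes at that dose (0.873% of named genes were called). At 5 and 50 µg/L 0 of the 48 were called by limma (1.68% and 0.338% of named genes), with 2 higher and 4 lower at 5 µg/L and 0 higher and 7 lower at 50 µg/L at an unadjusted p under 0.05. Those shares are of adjusted calls. The share of named genes at an unadjusted p was not counted, for these effects or between the control groups. For decr1 the effect was -1.51 ± 0.42 at 5 µg/L and -1.42 ± 0.39 at 50 µg/L (adjusted p = 0.0564 and 0.106), and for pex3 it was -1.19 ± 0.32 at 50 µg/L (adjusted p = 0.0993). The larger number of mitochondrial falls at 96 h is therefore a difference in counts, and a change with time was not established for any single mitochondrial gene. Between the control groups 0 of the 48 genes differed (1.45% of named genes did), with 2 higher and 1 lower at an unadjusted p under 0.05; their median difference was 0.14, against -0.02 over all named genes.

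The direct comparison of 50 with 0.5 µg/L was made among treated arrays alone, from their scanner brightness. At 24 h 4 of the 48 genes were higher and 5 lower at 50 µg/L (8.19% and 4.74% of named genes were), and at 96 h 2 were higher and 6 lower (3.91% and 2.88%). At both times acsl1b was higher (2.80 ± 0.22 and 2.01 ± 0.21), as was acsl4a (1.47 ± 0.26 and 1.79 ± 0.25). At both times cpt1b (-1.72 ± 0.24 and -0.95 ± 0.23), crata (-1.13 ± 0.24 and -1.19 ± 0.23), decr1 (-1.13 ± 0.27 and -1.76 ± 0.26) and acot11a (-1.52 ± 0.24 and -1.06 ± 0.23) were lower. At 24 h acaa1 was lower (-0.88 ± 0.19) and pex26 and pex19 were higher (0.77 ± 0.20 and 0.73 ± 0.19), the last not without the low-signal arrays (0.54).

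At 96 h echs1 (-0.58 ± 0.16) and acads (-0.72 ± 0.21) were lower at 50 than at 0.5 µg/L, 2 calls that single arrays could end. That of echs1 ended without any of replicates 1, 2 and 3 of 0.5 µg/L or 3, 4 and 5 of 50 µg/L (-0.58 to -0.44) and without the low-signal arrays (-0.38), and that of acads without any of replicates 2, 3, 5 and 6 of 0.5 µg/L or 1, 2, 5, 6 and 7 of 50 µg/L (-0.73 to -0.65). No peroxisomal gene was called in this comparison at 96 h; eci2 and crot measured -0.58 ± 0.18 and -0.86 ± 0.28 (adjusted p = 0.0582 and 0.0728).

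Other genes around the pathway were counted from lists chosen for their function, and are to be read against the 8.14% of named genes that fell at 50 µg/L and 96 h and the 6.16% at 24 h. Of 14 genes of peroxisomal partners 7 fell and none rose at 50 µg/L and 96 h (median -0.60): cat, catalase (-1.63 ± 0.26), hsd17b4 of the hydratase and dehydrogenase steps of the peroxisomal spiral (-1.14 ± 0.21), the membrane channel gene pxmp2 (-1.10 ± 0.34), phyh of phytanic acid breakdown (-0.98 ± 0.19), phyhd1 (-0.92 ± 0.22), the membrane transporter gene abcd3a (-0.72 ± 0.21) and scp2a, for a sterol carrier and thiolase (-0.63 ± 0.23). At 24 h 2 of the 14 fell. Of 11 genes of mitochondrial partners 4 fell and none rose at 96 h (median -0.34): the thiolase gene acat1 of ketone body metabolism (-1.84 ± 0.26), aldh9a1a.1 and bbox1 of carnitine synthesis (-1.15 ± 0.25 and -0.90 ± 0.31), and oxct1a of ketone body use (-0.85 ± 0.23). Of 15 regulators and uptake genes 3 fell and none rose (median -0.31), which were the nuclear receptor gene ppardb (-0.90 ± 0.25), angptl4, a lipase inhibitor and known target of PPARs (-0.74 ± 0.27), and slc27a2a of fatty acid uptake.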

How the data were processed

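Log2 ratios, Cy5 over Cy3, of 50 two-colour arrays were used as deposited by the authors. For the 35 treated arrays the scanner files and the value table hold the same ratios. Those of the 15 controls were not checked in this way. How the ratios were normalized, and with what software images were read, is not given in the sources used here. Scanner files deposited by the authors for 35 treated arrays gave spot intensities and the percent of pixels above background, per the file headers. Scanner values of the 15 controls were not used here. Each array was centred on its median. The arrays are of 1 dye orientation per the labels.

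Probes with values on at least 3 arrays of each group (22046 of 23232; 2.28% of their values missing and left out of the fit) entered 1 limma fit (version 3.58.1, R 4.3.3) over 8 groups, with Benjamini-Hochberg adjustment over all tested probes. Doses of 50 and 0.5 µg/L were compared from background-corrected (normexp, offset 50) and loess-normalized intensities of treated arrays. A spot counted as above background where more than 50% of its pixels exceeded background by the margin set in the scanner files. The limma fit over 8 groups was tested on simulated log2 ratios. Centring, background correction, loess and the comparison of 50 with 0.5 µg/L were not tested in that way. Tables were drawn up with pandas 2.3.3 and plots with matplotlib 3.10.9.

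The genes, the lists and the tests were chosen with earlier results of these data known. Of the 60 probes, 46 matched through an older name and 14 through the current symbol. Genes named in the text are all 48 by role, with values per array for cpt1b, decr1 and up to 4 genes of each role with the lowest p at 50 µg/L and 96 h. The alternatives were no centring, quantile normalization, a stricter value filter, array weights, leaving out low-signal arrays or any single array, a replicate block, other sets of arrays, and means over probes.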

Additional observations from a re-analysis of the deposited data

Results flagged for a closer look

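The spread within groups was checked only for the 29 genes given with values per array, in 232 groups of 4 to 8 arrays. In 14 of these a single array stood apart from the rest of its group. Chance alone flags about 1 in 20 groups, so 14 of 232 is near the number that chance would give. The other pathway genes were not checked. Peroxins made up 7 of the 14, and the peroxins checked were pex5, pex11g, pex19 and pex26. Replicate 2 of the 96 h controls was low for pex19 (-0.80, the others 0.25 to 0.86) and for pex26 (0.11, the others 0.51 to 0.81) and high for etfb (1.86, the others 0.84 to 1.18). Replicate 2 of the 24 h controls was low for pex19 too (-0.57, the others 0.26 to 0.82). At 5 µg/L and 24 h replicate 2 was low for pex26 (0.12, the others 1.06 to 1.49) and for echdc2 (0.12, the others 1.12 to 1.60), replicate 3 was low for acsl5 (-1.98, the others -0.48 to 0.22) and replicate 5 was high for pex11g (0.98, the others 0.39 to 0.57).

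At 5 µg/L and 96 h, a group of 4 arrays, replicate 1 was low for cpt2 (-0.97, the others -0.03 to 0.14), replicate 2 was high for pex11g (2.09, the others 0.65 to 0.87), and replicate 4 was low for acox3 (0.65, the others 1.44 to 1.55) and for pex26 (0.81, the others 1.25 to 1.32). The array of 0.5 µg/L at 24 h that stood apart from its group, replicate 2, was low for etfb (0.14, the others 0.99 to 1.30). For etfdh the low-signal replicate 5 of 50 µg/L at 24 h lay at -0.63, and the others at 0.06 to 0.41.

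The effect of 0.5 µg/L on acsl1b differed between the times by 1.16 on the log2 scale (adjusted p = 0.0109 in limma's interaction term), from -0.26 at 24 h to 0.90 at 96 h.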

How the results depend on the processing

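Of 61 called results of single genes against controls (etf1b included), 44 were called under every alternative, and no result changed direction while called. Of 588 results 507 were not called, and 48 of these were called under at least 1 alternative. Array weights gave 1 call in place of 0 at 0.5 µg/L and 24 h, 11 in place of 6 at 5 µg/L and 24 h, 6 in place of 3 at 0.5 µg/L and 96 h, and for the change with time 2 in place of 1 at 0.5 µg/L and 3 in place of 0 at 50 µg/L. Over all tested probes array weights gave 370 calls in place of 111 at 0.5 µg/L and 24 h and 2265 in place of 1340 at 5 µg/L and 24 h. At 0.5 µg/L and 96 h they gave 1766 in place of 716. Pooled controls gave 12 at 5 µg/L and 24 h, and 2226 in place of 1340 over all tested probes. Without the low-signal arrays there were 9 calls in place of 14 at 50 µg/L and 24 h, and 1 change with time at 50 µg/L; quantile normalization and the stricter value filter each gave 1 at 5 µg/L. Leaving out 1 array at a time gave 0 to 0, 6 to 9 and 11 to 14 calls at the 3 doses at 24 h, 2 to 4, 9 to 14 and 19 to 22 at 96 h, 1 to 1, 0 to 1 and 0 to 1 for the change with time, 0 to 0 between controls, 9 to 13 and 6 to 10 for 50 against 0.5 µg/L, and a gap between compartments of -0.29 to -0.13. That gap was -0.05 with array weights.

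Same-numbered arrays of different groups did not deviate together (median r -0.0158, range -0.374 to 0.568, 36 of 157 pairs over 0.1), so the numbers were not taken as pairs. The replicate block gave 0, 6, 12, 3, 10 and 21 calls in the 6 comparisons with controls, 1, 0 and 0 for the change with time, 0 between controls, 9 and 7 for 50 against 0.5 µg/L, and a gap of -0.22. It ended the calls of decr1 and acot7 at 50 µg/L and 24 h, of pex26 and echs1 at 5 µg/L and 96 h, of cpt2 at 50 µg/L and 96 h and of acads between the doses at 96 h (adjusted p = 0.0521 to 0.104). A block for slide or scan date was not run, since the scanner files used give neither. Leaving out the low-signal arrays also takes 3 of the 6 arrays of 50 µg/L at 24 h out of the fit.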

Other observations

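The translation termination factor gene etf1b, caught by the prefix etf, rose in 4 of the 6 comparisons. At 24 h the difference was 0.66 at 5 µg/L and 1.14 at 50 µg/L, and at 96 h it was 0.99 and 1.25, while its other probe measured 0.17 at 50 µg/L and 96 h and was not called. With the mean of both probes the call at 5 µg/L and 24 h ended (0.32, adjusted p = 0.134). The acyl-CoA dehydrogenase gene acad11 had the widest spread of the 48 genes, with an SD of 1.59 among the 24 h controls, which ran from -3.62 to 1.17, and a difference of -0.55 ± 0.55 at 50 µg/L and 96 h. The median SD of the 48 genes among the 24 h controls was 0.32. The mean level was above the pool for 36 and 37 of the 48 genes in the 24 and 96 h controls and for 32 at 50 µg/L and 96 h.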
